A study of Mus musculus with 10 samples.

Results

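Growth hormone signalling was followed in mouse liver through 10 genes: the receptor Ghr, the transcription factors Stat5a and Stat5b, the feedback inhibitors Socs2 and Cish, the secreted outputs Igf1 and Igfals, and the liver transcription factors Bcl6, Onecut1 and Cux2. The genes were listed by their place in the pathway, and each was read from the transcript cluster (the set of array probes for one gene) with the highest mean among those that carried that gene's symbol alone. All 10 were among the 22180 genes measured this way, and all 10 were among the 13308 genes above the filter on mean level. The livers came from 4-week-old male mice on 10 arrays in 3 groups. The 4 control livers carried Rosa26-rtTA, the doxycycline-dependent activator placed at a broadly expressed locus. The 3 shRNA1 livers carried Rosa26-rtTA with SOD2 shRNA 1, and the 3 shRNA2 livers carried Rosa26-rtTA with SOD2 shRNA 2, hairpins directed at the messenger RNA of mitochondrial superoxide dismutase. All groups shared the Rosa26-rtTA allele, and dams received chow with 625 mg/kg doxycycline so that the hairpins acted from embryonic day 0 to 12.5, long before the livers were collected. The controls were drawn unequally from the breeding cohorts of the hairpins, 3 from that of shRNA 2 and 1 from that of shRNA 1, and which control was which is not stated, so no comparison could be made within a cohort. The labels do not say that each array was a separate animal, so p-values measure only the spread between these arrays.

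Growth hormone reaches the liver in pulses in males and more evenly in females. It binds its receptor, the kinase JAK2 phosphorylates STAT5, and STAT5 enters the nucleus and switches on its targets. Among these targets are Cish and Socs2, whose proteins damp the same receptor, and Igf1 and Igfals, whose proteins travel together in the blood and carry much of the hormone's effect on growth. STAT5 also acts through other transcription factors: it lowers Bcl6, a repressor that occupies many of the sites STAT5 uses, while Onecut1 (HNF6) and Cux2 rise with growth hormone, Cux2 mainly under the female pattern.

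STAT5 binds a palindrome of the form TTCNNNGAA, which is its own reverse complement and is therefore found on both strands at once. The RefSeq promoter windows of build GRCm38.p6, from 250 bases before to 50 bases after each annotated start, held 9 of the 10 genes in 16 windows. Socs2 was not matched. The palindrome was present in 5 of these windows, belonging to Cish, Bcl6 and Igfals, and in 8.30% of all 32851 windows. Some genes had several windows. Counted by gene, 3 of the 9 had a match in any window, and so did 9.55% of all 27025 genes. Every match in the windows of these 3 genes is shown. Capitals mark the palindrome, and each stretch reads 5′ to 3′ on the strand of the gene.
Cish, chr9:107296599-107296688, plus strand: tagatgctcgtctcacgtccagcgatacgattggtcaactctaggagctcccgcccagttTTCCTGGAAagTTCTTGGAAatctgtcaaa
Bcl6, chr16:23988952-23988980, minus strand: agcaaattagTTCTCAGAAttccagaggc
Bcl6, chr16:23981433-23981461, minus strand: aggccgcggcTTCCTGGAAagttacttct
Bcl6, chr16:23981387-23981415, minus strand: ggcaggagtgTTCTGTGAAatccttagag
Bcl6, chr16:23981353-23981381, minus strand: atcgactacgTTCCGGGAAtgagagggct
Igfals, chr17:24877598-24877626, plus strand: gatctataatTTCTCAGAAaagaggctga
Igfals, chr17:24878163-24878191, plus strand: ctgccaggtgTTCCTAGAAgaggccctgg
The Cish window held 2 copies close together at its annotated start, and 0.457% of all windows held 2 or more. One Bcl6 window held 3 copies, and 0.0335% of all windows held 3 or more. These are matches of letters in a window and not measured binding. No match was found in the windows of Ghr, Stat5a, Stat5b, Igf1, Onecut1 and Cux2, which says only that these letters are not in those windows.

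The deposited values were log2 intensities between 1.41 and 13.8, with array medians between 4.06 and 4.17, and every pair of arrays correlated at 0.989 or above. The number of arrays limits the precision, and read depth does not apply. Sod2, the targeted gene, lay between 10.24 and 10.49 in all 10 livers, and its level in the shRNA groups minus controls was -0.01 (SE 0.08; limma, adjusted p = 0.980), a difference within the spread of the controls. The hairpins had acted in the embryo only, so this does not check the embryonic knockdown. Hepatocyte markers were high in every liver, with albumin between 13.70 and 13.82, and none of the 5 neutrophil markers passed the level filter. In whole tissue, fewer cells of a type and less RNA per cell cannot be told apart.

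None of the 10 genes differed between the groups past an adjusted p of 0.05 in any of 4 comparisons made by limma in one fit over the 3 groups: both shRNA groups (the mean of their 2 group means) minus control, shRNA1 minus control, shRNA2 minus control, and shRNA1 minus shRNA2. Over all tested genes these comparisons called 0.00751%, 0%, 0.00751% and 0.015% of genes, which is 1, 0, 1 and 2 genes. At an unadjusted p under 0.05, the counts among the 10 genes were 0 in both shRNA groups against control, 1 in shRNA1 minus control (Stat5b), 1 in shRNA2 minus control (Bcl6) and 1 in shRNA1 minus shRNA2 (Stat5b). The shares of all tested genes at that level were 8.37%, 7.89%, 7.6% and 6.02%. The groups did not overlap for 0, 1, 0 and 1 of the 10 genes, each time Stat5b, against 1.88%, 8.9%, 7.29% and 11.3% of all tested genes. These counts are near the background and are no result about the pathway. The median difference of the 10 genes in both shRNA groups minus control was -0.07, with 1 gene higher and 9 lower. Over all tested genes the median was 0.01 and 52.0% were higher. The count differed between the hairpins: 2 genes were higher and 8 lower in shRNA1 (median -0.14), and 5 were higher and 5 lower in shRNA2 (median 0.00). Of all tested genes, 52.4% were higher in shRNA1 and 51.2% in shRNA2. These counts of direction were not tested. Without control 4, the differences of Ghr, Stat5a, Socs2, Cish, Igf1 and Cux2 for both shRNA groups turned from below to above 0.

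**Figure D1:**
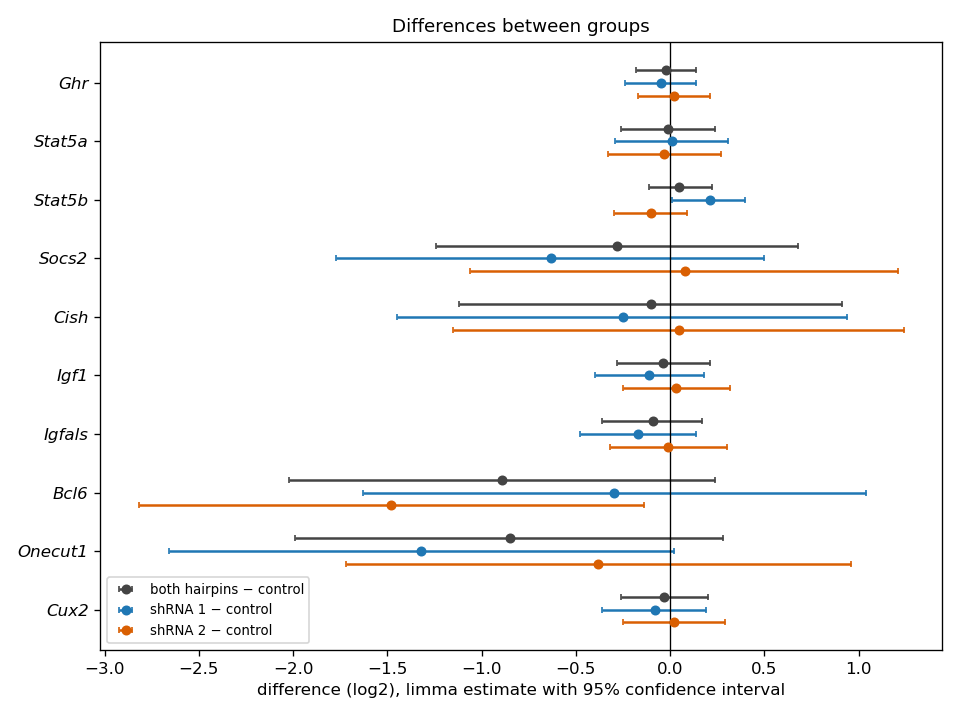
Differences of the 10 genes from control on the log2 scale, for both shRNA groups, shRNA1 and shRNA2, as limma estimates with 95% confidence intervals. The widest intervals belong to Socs2, Cish, Bcl6 and Onecut1, and the only 2 that leave out 0 are those of Stat5b in shRNA1 and Bcl6 in shRNA2.

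The receptor was the steadiest of the 10. Ghr was at 9.01, 9.13, 9.20 and 9.22 in control livers 1 to 4, at 9.0, 9.12 and 9.15 in shRNA1 and at 9.14, 9.19 and 9.14 in shRNA2. Its range covered 0.23 log2 units, and 94.0% of tested genes had a larger standard deviation within groups. The difference of both shRNA groups from control was -0.02 (95% interval -0.18 to 0.14; exact permutation p = 0.724, two-sided, over 210 splits with a smallest possible p of 0.0048).

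STAT5 was read from its 2 genes, which lie next to each other on the chromosome and encode closely related proteins. Stat5b, the main form in liver, was at 8.33, 8.51, 8.49 and 8.41 in controls, at 8.52, 8.69 and 8.70 in shRNA1 and at 8.29, 8.42 and 8.29 in shRNA2. Every shRNA1 liver lay above every control and every shRNA2 liver, while shRNA2 overlapped the controls. The difference of shRNA1 from control was 0.21 (SE 0.09; adjusted p = 0.595 by limma; exact permutation p = 0.0286, the smallest that 35 splits allow). That of shRNA1 from shRNA2 was 0.31 (SE 0.10; adjusted p = 0.687; exact permutation p = 0.1, the smallest that 20 splits allow). It was larger than the spread of Stat5b within groups, an SD of 0.08, which was smaller than that of 92.1% of tested genes.

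Genes of the circadian clock varied between the same livers. Npas2, a clock activator, was at 3.81, 4.46, 4.76 and 4.82 in controls, at 4.49, 5.23 and 5.24 in shRNA1 and at 3.79, 4.72 and 3.95 in shRNA2. Arntl, its partner, was at 6.15, 7.66, 7.66 and 7.50 in controls, at 6.86, 7.92 and 7.94 in shRNA1 and at 6.29, 7.58 and 5.44 in shRNA2. Dbp, which peaks at the opposite phase, was at 8.71, 6.85, 7.38 and 7.27 in controls, at 8.29, 7.01 and 7.16 in shRNA1 and at 8.84, 7.74 and 9.09 in shRNA2. The livers lowest in Arntl and highest in Dbp were control 1, shRNA1 replicate 1 and shRNA2 replicates 1 and 3, and 3 of these 4 had the lowest Stat5b values. The remaining liver, shRNA1 replicate 1, had Stat5b at 8.52, above every control. Npas2 and Arntl were named after their values were seen. Over the 12 clock genes, r with Stat5b ran from -0.76 (Dbp) to 0.88 (Npas2), with Per1 at -0.06. The labels give no hour of collection, and the part of the clock genes in the Stat5b values was not tested. Stat5a overlapped in all groups, between 5.94 and 6.59 over the 10 livers, with a difference of -0.01 (95% interval -0.26 to 0.24) for both shRNA groups against control.

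The feedback inhibitors varied widely from liver to liver. Cish was at 6.50, 4.75, 7.60 and 7.57 in controls, at 6.55, 6.10 and 6.39 in shRNA1 and at 6.52, 6.26 and 7.18 in shRNA2. The lowest and the highest liver were both controls and lay 2.84 log2 units apart, a 7.18-fold range. The within-group SD of 0.92 was exceeded by 0.135% of tested genes. The difference of both shRNA groups from control was -0.10 (95% interval -1.12 to 0.91; exact permutation p = 0.881).

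Socs2, which limits body growth by damping the receptor, was at 6.04, 6.87, 7.24 and 8.03 in controls, at 5.21, 7.51 and 6.52 in shRNA1 and at 7.47, 6.51 and 7.40 in shRNA2. All groups overlapped, over a 7.08-fold range, and 0.165% of tested genes had a larger within-group SD than its 0.87. The difference was -0.28 (95% interval -1.24 to 0.68; exact permutation p = 0.643). A second, dimmer cluster of each gene also varied: within-group SDs were 0.35 for Cish and 0.58 for Socs2, above the 0.331 that marks the 95th percentile of tested genes. In both genes the second cluster was highest in control 4.

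**Figure D2:**
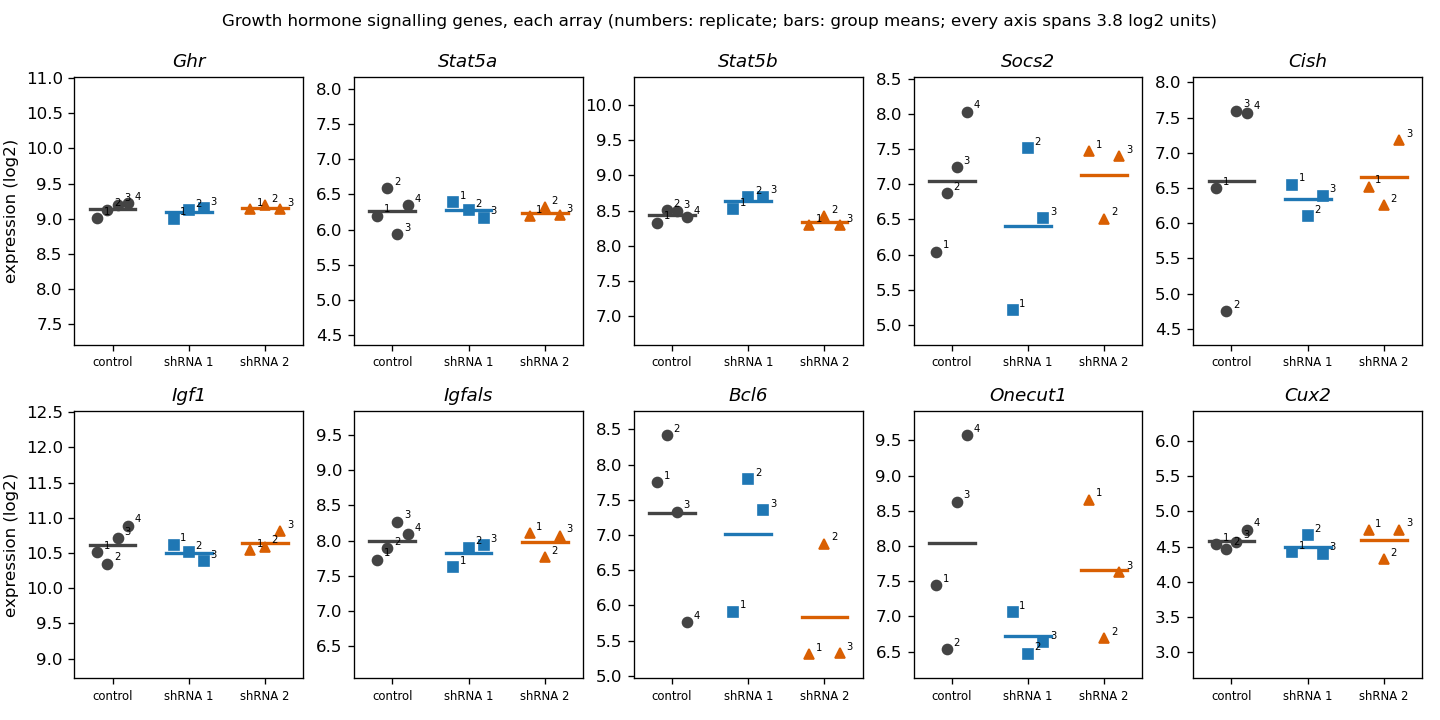
Log2 level of each of the 10 genes in every liver, by group (4 control, 3 shRNA1, 3 shRNA2), with every axis spanning the same number of log2 units. Ghr and Stat5b form tight rows, while Socs2, Cish, Bcl6 and Onecut1 spread over more than 2.8 log2 units with groups that overlap.

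The secreted outputs varied within narrower limits. Igf1 was at 10.51, 10.35, 10.71 and 10.89 in controls, at 10.62, 10.51 and 10.38 in shRNA1 and at 10.54, 10.59 and 10.81 in shRNA2. Its highest and lowest livers were again both controls, 1.46-fold apart, and 37.3% of tested genes had a larger within-group SD than its 0.18. The difference of both shRNA groups from control was -0.04 (95% interval -0.28 to 0.21; exact permutation p = 0.752). Igfals, which encodes the acid-labile subunit that keeps IGF-1 in the circulation, was at 7.73, 7.89, 8.27 and 8.09 in controls, at 7.62, 7.90 and 7.94 in shRNA1 and at 8.11, 7.77 and 8.07 in shRNA2. Its difference was -0.09 (95% interval -0.36 to 0.17; exact permutation p = 0.524).

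Bcl6 and Onecut1 showed the widest spread of the 10 genes. Bcl6 was at 7.75, 8.42, 7.33 and 5.76 in controls, at 5.91, 7.79 and 7.35 in shRNA1 and at 5.31, 6.88 and 5.32 in shRNA2. Low livers (below 6) occurred in every group: control 4, shRNA1 replicate 1 and shRNA2 replicates 1 and 3. The range was 8.63-fold, and 0.0676% of tested genes had a larger within-group SD than its 1.03. The shRNA2 difference from control was -1.48 (SE 0.61; 95% interval -2.82 to -0.14; adjusted p = 0.630 by limma; exact permutation p = 0.143), and control 4 lay within the shRNA2 range. For both shRNA groups the difference was -0.89 (95% interval -2.02 to 0.24; exact permutation p = 0.248). It was -1.41 without control 4 and -0.52 without control 2.

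Onecut1 was at 7.44, 6.53, 8.63 and 9.57 in controls, at 7.06, 6.47 and 6.63 in shRNA1 and at 8.66, 6.69 and 7.63 in shRNA2. The 3 shRNA1 livers were all low and close together, but control 2 and shRNA2 replicate 2 were as low. The range was 8.57-fold, and 0.0601% of tested genes had a larger within-group SD than its 1.03. The difference of shRNA1 from control was -1.32 (SE 0.61; 95% interval -2.66 to 0.02; adjusted p = 0.644 by limma; exact permutation p = 0.2), and -0.81 without control 4. For both shRNA groups the difference was -0.85 (95% interval -1.99 to 0.28; exact permutation p = 0.257), and it was -1.36 without control 2 and -0.34 without control 4. Onecut2, a related factor, was at 6.82, 6.93, 7.10 and 7.60 in controls, at 6.81, 7.06 and 6.71 in shRNA1 and at 7.28, 6.63 and 7.08 in shRNA2, and its highest liver was also control 4. Cux2 stayed between 4.32 and 4.74, near the level filter of 3.98, with a difference of -0.03 (95% interval -0.26 to 0.20).

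**Figure D3:**
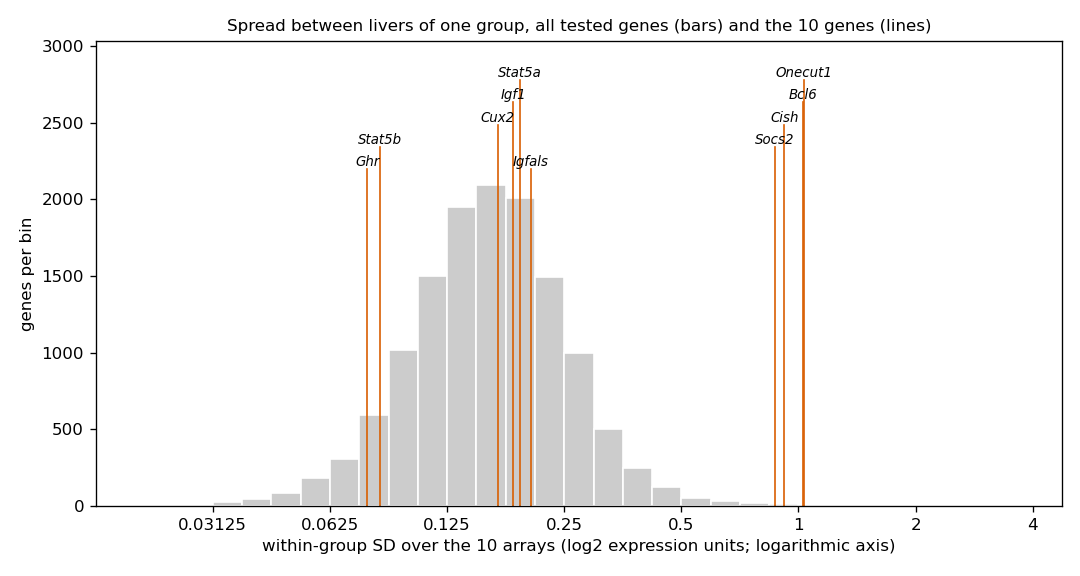
Distribution of the within-group standard deviation over the 13308 tested genes (log axis), with the 10 genes marked. Socs2, Cish, Bcl6 and Onecut1 lie above the 95th percentile of 0.331, and Ghr and Stat5b lie below the median of 0.161.

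Socs2, Cish, Bcl6 and Onecut1 were the 4 of the 10 genes above the 95th percentile of spread, and some livers recurred at the extremes. Cish and Igf1 had the same 3 highest livers, control 3, control 4 and shRNA2 replicate 3, and these were among the 4 highest for Onecut1. Over the 10 livers, Cish correlated with Igf1 at r = 0.84 (permutation p = 0.00184; Spearman rho 0.83, permutation p = 0.00493), at 0.88 without the 2 livers farthest from the Cish median and at 0.85 after the group means were removed. Cish correlated with Onecut1 at r = 0.74 (permutation p = 0.0116; rho 0.85, permutation p = 0.00297), at 0.80 without the 2 farthest livers and at 0.80 within groups. Bcl6 ran the other way against Igf1, at r = -0.68 (permutation p = 0.0328; rho -0.72, permutation p = 0.0226), with -0.77 within groups and -0.47 without the 2 livers farthest from the Igf1 median.

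Among the feedback genes, Socs2 correlated with Igfals at r = 0.81 (permutation p = 0.00397; rho 0.75, permutation p = 0.0167), but at 0.57 without the 2 farthest livers, so that this relation rests in part on them. Socs2 and Cish, both classed as feedback targets, correlated at r = 0.30 (permutation p = 0.407; rho 0.20, permutation p = 0.585). Stat5a and Cish gave r = -0.70 (permutation p = 0.0335; rho -0.35, permutation p = 0.330) and 0.16 without the 2 farthest livers, so that this relation rests on them. Other pairs with r above 0.7 were Ghr with Socs2 (0.78, and 0.24 without the 2 farthest livers) and Ghr with Igfals (0.75 and 0.39). Socs2 with Cux2 gave 0.75 and 0.93 in the same order, and Igf1 with Onecut1 0.72 and 0.60. In these pairs Ghr ranged over only 0.23 log2 units and Cux2, near the level filter, over only 0.42. Bcl6 with Onecut1 gave r = -0.57 (permutation p = 0.0845) and -0.86 within groups. Of the 45 pairs, 11 had a permutation p under 0.05 and 0 had a Benjamini-Hochberg adjusted p under 0.05, the smallest being 0.0828 for Cish and Igf1. The share of pairs of all tested genes at that level was not computed, so the count of 11 has no background to be set against. For these 11 pairs, 0.135% to 2.19% of tested genes correlated at least as far, in the same direction, with the gene of the pair listed first among the 10. With the second clusters of Cish and Socs2 both in place of the first, an alternative chosen after seeing the data, the adjusted p was 0.0069 for Cish with Igf1 (r = 0.90) and with Onecut1 (r = 0.89). The livers share labelling and normalization, and liver-wide differences in RNA quality were not measured.

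**Figure D4:**
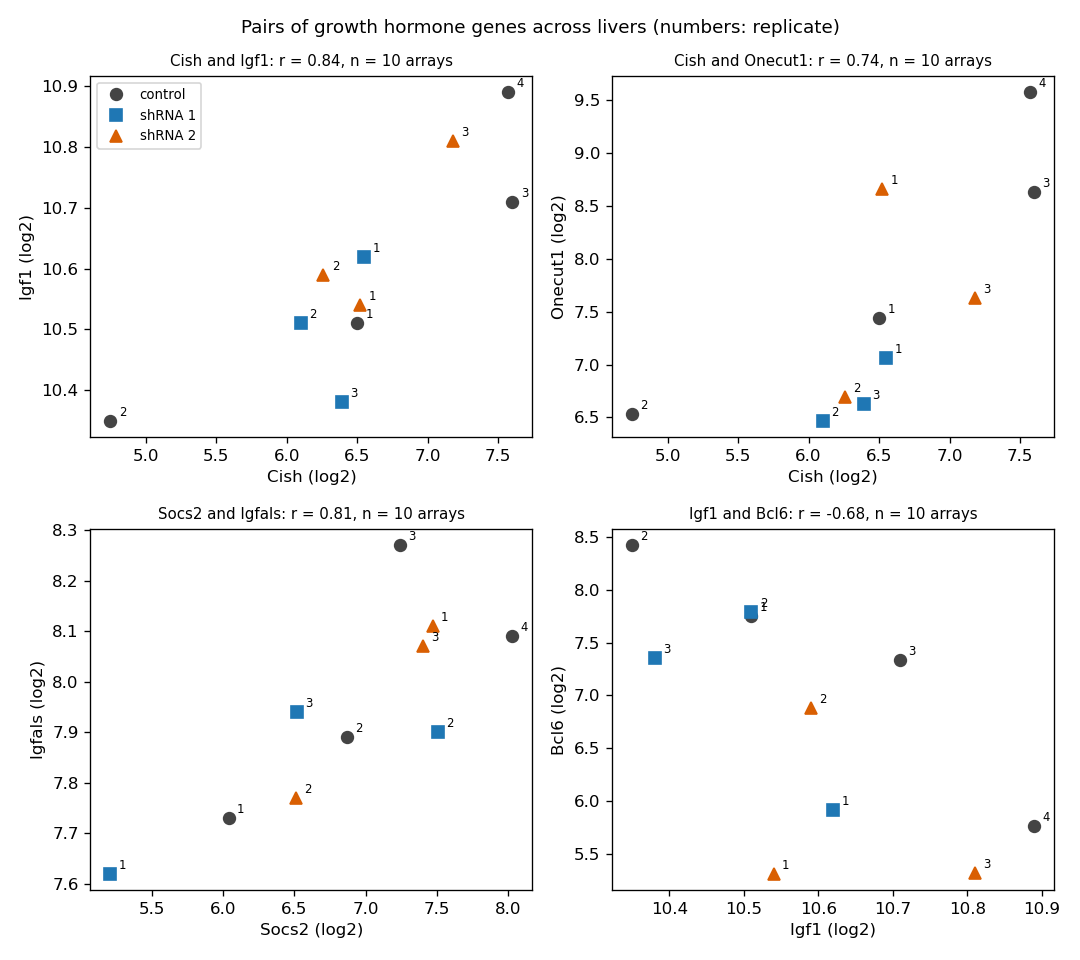
Log2 levels of 4 gene pairs over the 10 livers, coloured by group, with each point one liver. Cish with Igf1 (r = 0.84), Cish with Onecut1 (r = 0.74) and Socs2 with Igfals (r = 0.81) slope upward, and Igf1 with Bcl6 (r = -0.68) slopes downward.

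The genes whose levels ran most like each of the 10 over the 10 livers, by Pearson r, were as follows. Ghr was matched by Invs (0.95) and Carf (0.90), Stat5a by Unc13d (0.95) and Rapgef3 (0.88), and Stat5b by Igtp (0.95) and Abtb2 (0.94). Socs2 was matched by Plppr1 (0.92) and Crem (0.91), and Cish by Hhex (0.93), a liver homeobox factor, and Sergef (0.91). Igf1 was matched by Tcf15 (0.89) and Selenop (0.88), the hepatic selenium carrier, and Igfals by Zfp516 (0.93) and Mib1 (0.92). Bcl6 was matched by Aftph (0.92) and Alkbh5 (0.90), Onecut1 by Gbp11 (0.93) and Pilrb1 (0.92), and Cux2 by Tmub1 (0.89) and Zcchc2 (0.88). These are the highest of 13308 correlations each and carry no test.

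The rest of the pathway was read from lists, and no gene of the 10 pathway and liver-state lists passed the adjusted threshold for both shRNA groups against control, in which 0.00751% of all tested genes did. Of 9 receptor-proximal signalling genes, 3 were higher and 6 lower (median -0.06). Ptpn11, the phosphatase SHP2, differed by -0.18 (SE 0.08; adjusted p = 0.564) and Jak2, the receptor's kinase, by 0.09 (SE 0.09; adjusted p = 0.835). Of 12 negative regulators, 6 were higher and 6 lower (median 0.00), among them Socs3 at -0.23 (SE 0.15) and Socs5 at 0.16 (SE 0.08). Of 13 genes of the IGF axis, 8 were higher and 5 lower (median 0.02). Stc2, an inhibitor of the proteases that free IGF from its binding proteins, differed by -0.36 (SE 0.12; adjusted p = 0.466), and Igf1r by 0.14 (SE 0.12). Of 14 liver transcription factors, 4 were higher and 10 lower (median -0.14), with Prox1 at -0.24 (SE 0.08; adjusted p = 0.440), Hnf4a at -0.18 (SE 0.08), Foxa3 at -0.31 (SE 0.14) and, in the other direction, Trim24 at 0.33 (SE 0.16).

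Growth hormone sets the level of many liver genes by sex, and none of those listed passed the adjusted threshold. Of 20 male-biased genes, 0 were higher and 20 lower (median -0.40). Mup21, a urinary protein, differed by -1.26 (SE 0.22; adjusted p = 0.170). The mean of the male-biased list, set against the control mean, was -0.04, 0.13, 0.26 and -0.35 in controls, -0.64, -0.49 and -0.49 in shRNA1 and 0.04, -0.14 and -1.29 in shRNA2. Control 4 thus lay below shRNA2 replicates 1 and 2, and replicate 3 was far below both. Of 21 female-biased genes listed, 17 were measured and 10 passed the level filter. Of these 10, 10 were higher and 0 lower (median 0.60). Cyp2b9, a female-biased cytochrome P450, differed by 3.70 (SE 0.98; adjusted p = 0.345). The filter used the mean over all arrays, so a gene low in controls could pass through its shRNA levels. Slc22a27 did so, with means of 3.23 in controls, 5.94 in shRNA1 and 4.3 in shRNA2. The count of higher genes was therefore not independent of the filter. The mean of the female-biased list, set against the control mean, was -0.30, -0.07, -0.46 and 0.84 in controls, 1.19, 1.30 and 1.19 in shRNA1 and 0.33, 0.57 and 2.06 in shRNA2, so control 4 lay within the shRNA2 range. At an unadjusted p under 0.05 by limma, both shRNA groups minus control gave 8 of the 20 male-biased and 5 of the 10 female-biased genes. The 10 pathway genes gave 0, and the share of all tested genes was 8.37%. Both lists were written with earlier results of these arrays known, and their counts are no independent evidence of direction. In the same livers none of the 10 pathway genes passed the adjusted threshold either.

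Other states of the liver were read the same way. With the shRNA1 and shRNA2 means averaged, the 14 acute phase genes were all below control (median -0.21). Apcs, the serum amyloid P component, was at -0.47 (SE 0.10; adjusted p = 0.264). The hairpins differed: 0 genes were higher and 14 lower in shRNA1 (median -0.36), and 3 higher and 11 lower in shRNA2 (median -0.08). Apcs differed from control by -0.76 in shRNA1 and -0.19 in shRNA2. The mean of the acute phase list, set against the control mean, was 0.20, 0.52, -0.15 and -0.58 in controls. It was -0.51, -0.70 and -0.55 in shRNA1 and 0.01, 0.16 and -0.57 in shRNA2. Control 4 was low in acute phase genes and in Bcl6 and high in Onecut1 and Socs2. Of 12 genes of fasting and feeding, 7 were higher and 5 lower (median 0.03), with Ppargc1a at 0.59 (SE 0.13; adjusted p = 0.264), G6pc at 0.58 (SE 0.17), Tat at 0.26 (SE 0.12) and Fgf21 at -0.94 (SE 0.35). Of 12 clock genes, 9 were higher and 3 lower (median 0.12), and of 8 immediate early genes 2 were higher and 6 lower (median -0.09). The only listed gene called in any comparison was Dusp1, an immediate early phosphatase, at 0.99 in shRNA1 minus shRNA2 (SE 0.13; adjusted p = 0.0350). Igfbp1, which rises on fasting, ranged from 8.07 to 10.75 with both ends in shRNA1. For cell types, the mean over 7 Kupffer cell markers ran from -0.18 to 0.30 per liver, that over 6 endothelial markers from -0.10 to 0.14, that over 7 stellate cell markers from -0.09 to 0.23 and that over 7 hepatocyte markers from -0.03 to 0.13. Of the cholangiocyte, T and NK cell, B cell and erythroid lists, 3, 2, 2 and 1 genes passed the filter, with medians for both shRNA groups minus control of -0.02, 0.07, 0.13 and 0.02. The part of these states in the spread of Cish, Socs2, Bcl6 and Onecut1 was not tested.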

How the data were processed

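Liver RNA was hybridised to Affymetrix Mouse Gene 2.0 ST arrays, and the deposited log2 values came from Affymetrix Expression Console, per the submitters' processing notes. Its version, the normalization and the build were not given in the sources used here. Of 41345 transcript clusters, 23521 carried 1 gene symbol, 1814 several and 16010 none in the platform annotation. Clusters with 1 symbol were used, with the highest-mean cluster per gene, and a gene was tested if its mean reached the 40th percentile of genes (log2 3.98). One limma fit (limma 3.58.1, R 4.3.3) covered all 3 groups, with Benjamini-Hochberg adjustment over all tested genes. Exact permutation tests compared single genes, and correlations used 100000 resamples (Python 3.11.15). The fit was tested on simulated data. Replicate numbers were not treated as pairs, since the labels tie them to no shared animal, litter or day. The 10 genes and all lists were chosen with earlier results of these data known. Named genes were the 10, Sod2, from each list those past the threshold filled to 4 by moderated t (fewer printed for some), and the 2 most correlated genes for each of the 10. Onecut2, Npas2, Arntl, Igfbp1 and albumin were named after their values were seen. Alternatives covered normalization, filter, cluster, block, weights, prior, groups in the fit, threshold and each sample left out. Promoter windows came from RefSeq.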

Additional observations from a re-analysis of the deposited data

Results flagged for a closer look

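Stat5b stood out because the shRNA groups lay on opposite sides of the control mean of 8.43, every shRNA1 liver above it and every shRNA2 liver below it. The shRNA2 livers still overlapped the controls, with a difference of -0.10 (adjusted p = 0.837 by limma). No overlap between shRNA1 and shRNA2 was seen for 11.3% of all tested genes. The difference of shRNA1 from shRNA2 was 0.31 on the log2 scale, which did not pass the limma test after adjustment (adjusted p = 0.687). Clock gene values that differed between the same livers are given with the Stat5b values, and their part was not tested.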

How the results depend on the processing

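In 84 alternative readings (21 settings in each of 4 comparisons) no gene of the 10 passed the adjusted threshold. These were not all separate fits. The setting with a threshold of 0.1 reread the main fit, and leaving out a liver of a group not compared left the difference unchanged. The lowest adjusted p by limma was 0.308 (Bcl6 in both shRNA groups minus control, at -1.41 with the replicate block). That block leaves out control 4 by construction, the only sample with its number. Deviations from the group means of same-numbered samples correlated between -0.25 and 0.267 over 9 pairs. Differently numbered pairs were not set beside them, so these values cannot show whether same-numbered samples deviated together. Differences whose sign turned, none past the threshold, were as follows. With the replicate block, both shRNA groups minus control gave 0.01 for Ghr, 0.01 for Stat5a, 0.05 for Socs2, 0.22 for Cish, 0.05 for Igf1 and 0.02 for Cux2, while Cish in shRNA1 gave 0.07, Igfals in shRNA2 0.02 and Onecut1 in shRNA2 0.13. With array weights, Cish gave 0.01 for both groups and Stat5a -0.01 in shRNA1. With other clusters in shRNA2, Socs2 gave -0.06 as a mean of clusters and -0.20 with the second cluster, and Cish -0.05. Leaving out each sample in turn, differences for both shRNA groups ranged from -0.06 to 0.01 for Ghr, -0.12 to 0.10 for Stat5a, -0.61 to 0.05 for Socs2, -0.72 to 0.23 for Cish, -0.13 to 0.05 for Igf1, -0.08 to 0.04 for Cux2 and -0.04 to 0.02 for Sod2. In shRNA1 they ranged from -0.10 to 0.12 for Stat5a, -0.87 to 0.08 for Cish and -0.82 to 0.26 for Bcl6. In shRNA2 they ranged from -0.03 to 0.04 for Ghr, -0.14 to 0.08 for Stat5a, -0.26 to 0.41 for Socs2, -0.57 to 0.38 for Cish, -0.06 to 0.13 for Igf1, -0.10 to 0.09 for Igfals, -0.88 to 0.13 for Onecut1 and -0.05 to 0.16 for Cux2. For shRNA1 minus shRNA2, Stat5a ranged from -0.01 to 0.09. The causes were not tested. Cux2 fell below the filter at the 60th percentile, so 9 genes were tested there. The Cish within-group SD was 0.35 with the second cluster. For correlations, Cish with Igf1 gave 0.89 with the mean of clusters (adjusted p = 0.0225), and 3 pairs passed with 1 sample left out: Socs2 with Igfals without control 3 (0.90, adjusted p = 0.0445), Cish with Igf1 without shRNA1 replicate 3 (0.90, adjusted p = 0.0429) and Ghr with Igfals without shRNA2 replicate 2 (0.91, adjusted p = 0.0464). Over all 10 livers, Ghr with Igfals gave r = 0.75 (permutation test, adjusted p = 0.0871), and 0.39 without the 2 livers farthest from the Ghr median.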
